A study of Homo sapiens with 5 samples.

Results

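The early genes of the FOS, JUN and EGR families were followed in KMH2, an established line of Hodgkin lymphoma cells, on 5 Affymetrix arrays. The KMH2 cells had been cultured for 16 hours with 30 uM LY294002, an inhibitor of phosphoinositide 3-kinase (PI3K) that also binds mTOR and BET bromodomain proteins (2 arrays), or with the solvent DMSO (3 arrays). A further array with high background had been left out by the authors. The members were chosen by name (FOS, FOSB, FOSL1, FOSL2, JUN, JUNB, JUND, EGR1, EGR2 and EGR3), and 9 of the 10 were measured, of 7713 genes in all. EGR2 was not analysed here. Each of the 9 had 1 probe set, and its value is given on the deposited log2 scale, where a difference of 1 is a doubling. The probe sets of JUND and EGR1 carry the suffix _s_at, which marks probes that can bind more than 1 transcript.

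FOS and JUN proteins are leucine zipper factors that pair with each other to form AP-1, the dimer that binds AP-1 sites. JUN proteins can also pair among themselves, whereas FOS proteins need a partner of another family. EGR proteins are zinc finger factors that bind GC-rich sites and are held in check by the corepressors NAB1 and NAB2. Most of these genes are known as immediate early genes, switched on within minutes of a signal through ERK, JNK or p38 kinases and then switched off again, so the 16 hours of culture here lie past that early window. In Hodgkin cells AP-1 is known for constitutive activity, with JUN and JUNB as its main subunits. JUNB is known there to bind the promoter of TNFRSF8, the gene of the surface marker CD30.

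The stretches of DNA just upstream of the 3 JUN family genes are shown because these genes had the highest log2 fold changes among the members, and that of EGR1 because it is known for binding the serum response factor SRF. They are the 250 bases before the annotated start of each gene, from RefSeq on GRCh38.p14, written 5′ to 3′ on the strand of the gene. Positions are chr19:12791236-12791485 on the plus strand for JUNB, chr19:18281623-18281872 on the minus strand for JUND, chr1:58784048-58784297 on the minus strand for JUN and chr5:138465229-138465478 on the plus strand for EGR1. Capitals mark the CCAAT box in the JUN family stretches, the cAMP response element of JUND, its variant in JUN, and the EGR site and the CArG boxes of EGR1.
JUNB: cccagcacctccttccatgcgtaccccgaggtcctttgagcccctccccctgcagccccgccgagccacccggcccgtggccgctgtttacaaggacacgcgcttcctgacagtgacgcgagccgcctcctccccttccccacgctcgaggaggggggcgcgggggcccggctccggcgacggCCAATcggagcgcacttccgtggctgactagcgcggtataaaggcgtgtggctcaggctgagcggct
JUND: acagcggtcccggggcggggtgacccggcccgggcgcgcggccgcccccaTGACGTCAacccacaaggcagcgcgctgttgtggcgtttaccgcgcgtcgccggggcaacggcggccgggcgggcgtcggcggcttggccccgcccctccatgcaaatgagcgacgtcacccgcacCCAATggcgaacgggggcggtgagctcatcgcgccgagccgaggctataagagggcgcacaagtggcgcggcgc
JUN: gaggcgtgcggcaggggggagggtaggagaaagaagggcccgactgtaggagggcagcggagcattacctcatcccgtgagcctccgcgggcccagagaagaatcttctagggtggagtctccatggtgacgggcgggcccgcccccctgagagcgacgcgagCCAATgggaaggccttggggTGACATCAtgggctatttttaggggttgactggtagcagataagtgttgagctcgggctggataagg
EGR1: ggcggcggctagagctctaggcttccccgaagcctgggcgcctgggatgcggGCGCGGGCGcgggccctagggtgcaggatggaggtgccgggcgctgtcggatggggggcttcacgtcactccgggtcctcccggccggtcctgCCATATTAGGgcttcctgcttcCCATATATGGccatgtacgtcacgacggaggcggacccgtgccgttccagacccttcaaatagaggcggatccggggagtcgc

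The search covered both strands of the 250 bases for 8 motifs in 35116 promoters. Of the 10 members 8 matched an entry (FOS, FOSB, FOSL2, JUN, JUNB, JUND, EGR1 and EGR2, the last with 3 start sites). CCAAT was found in JUNB, JUND and JUN, which are 3 of the 8 members, and in 11240 of all promoters. The cAMP response element TGACGTCA was found in JUND, 1 of the 8, and in 1.65% of promoters. The variant TGACATCA, known as the site through which JUN responds to JUN and ATF2 dimers, was found in JUN and in 2.37% of promoters. The AP-1 site TGANTCA was found in 0 of the 8 and in 6.57% of promoters. CArG boxes, the sites of SRF, were found in EGR1, in EGR2 before start site 3 only, and in 1.16% of promoters. A member was counted if any of its start sites had a match, whereas the shares of promoters count each start site by itself. The EGR site GCGNGGGCG was found in EGR1 and in 8.41% of promoters, the GC box GGGCGG in 6 of the 8 and in 42.6%, and the ETS core CGGAAG in JUNB and in 16.5%. In these stretches 0 matches overlapped a match to another motif. A match is a run of letters and not a measured binding site.

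LY294002 was compared with DMSO to ask how the inhibitor changes gene expression in these cells. By limma with Benjamini-Hochberg adjustment over all 8746 probe sets, 0 of the 9 members passed an adjusted p of 0.05, where 0.908% of all 7713 genes did. At an unadjusted p under 0.05 there were 3 members, JUNB, JUND and JUN, beside 17.1% of all genes. These 3 were also the members with both LY294002 arrays above all DMSO arrays, as were 16.2% of genes. EGR3 was the 1 member with both LY294002 arrays below all DMSO arrays, as were 13.4% of genes. The median log2 fold change was -0.0060 over the 9 members and -0.01 over all genes. By family the median was 0.51 for the 3 JUN genes, -0.01 for the 4 FOS genes and -0.08 for the 2 EGR genes. Of the 9 members 4 had a log2 fold change above 0, as did 44.3% of all genes. Errors after ± are standard errors of this fit. The labels do not tell whether each array came from its own culture, and the spread behind the p-values may therefore be technical.

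JUNB, the JUN family member tied to Hodgkin cells, had values of 10.20 and 9.93 on LY294002 replicates 1 and 2, against 9.48, 9.57 and 9.63 on DMSO replicates 1, 2 and 3. Both LY294002 arrays lie above every DMSO array, by 0.30 at the closest. The difference was 0.51 ± 0.10 on the log2 scale (1.42-fold, 95% interval 0.25 to 0.77), with a limma adjusted p of 0.105, the smallest of any member. After quantile normalization the adjusted p was 0.0351 for a difference of 0.47, and after cyclic loess it was 0.0451 for 0.48. In the log2 fold changes of all genes, 177 were larger than that of JUNB.

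JUND, a JUN family member known for high and steady expression in resting cells, had 11.03 and 10.55 on the LY294002 arrays, against 10.46, 10.21 and 10.14 on the DMSO arrays. The groups do not overlap, but LY294002 replicate 2 lies only 0.08 above DMSO replicate 1. The log2 difference was 0.51 ± 0.18 (1.43-fold, 95% interval 0.03 to 0.99, limma adjusted p = 0.268). Without LY294002 replicate 1 it was 0.28, and without LY294002 replicate 2 it was 0.75.

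JUN, the founding member of the family, was dim, with 5.63 and 5.37 on the LY294002 arrays, against 5.16, 5.08 and 5.13 on the DMSO arrays. The LY294002 arrays lie above the DMSO arrays by at least 0.20, and the DMSO arrays lie within 0.09 of each other. Its log2 difference was 0.38 ± 0.09 (1.30-fold, 95% interval 0.14 to 0.61, limma adjusted p = 0.147), or 0.24 without LY294002 replicate 1. JUN passed in 1 alternative, chosen after seeing the data, that dropped every probe set repeating a value within a group. The adjusted p was then 0.0389 for JUN and 0.018 for JUNB, with 510 of 4771 genes past the threshold.

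All 3 JUN genes were higher on LY294002 replicate 1 than on LY294002 replicate 2, by 0.27 for JUNB, 0.48 for JUND and 0.26 for JUN. Of all genes, 44.0% were higher on LY294002 replicate 1. The upper quartile of that array was 7.69, against 7.60 to 7.62 on the other 4, while medians lay between 6.26 and 6.29 on all 5. The part of this offset in the JUN values was not tested beyond the normalizations above.

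**Figure D1:**
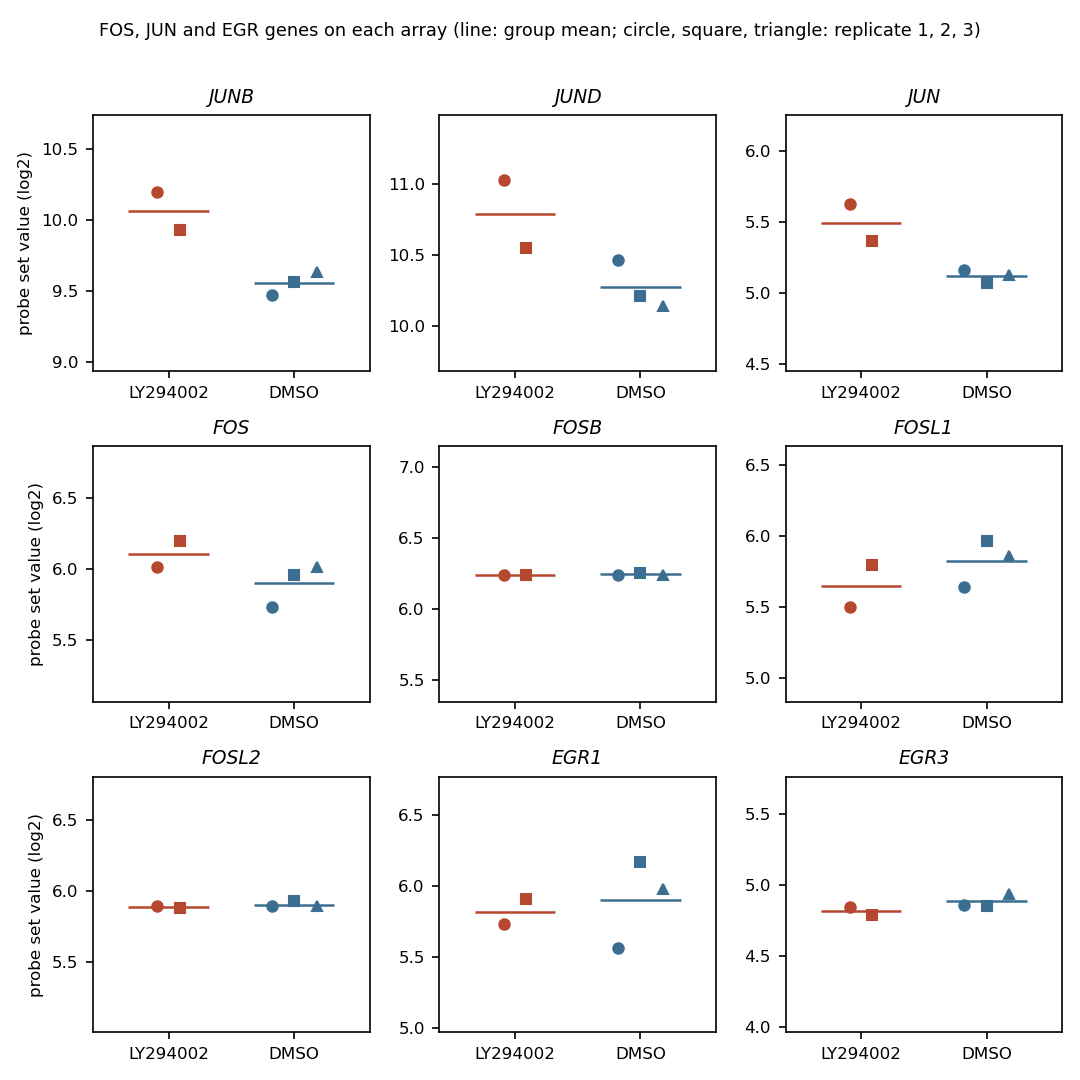
Log2 probe set values of the 9 measured members (vertical axes, each spanning 1.8 log2 units) on the LY294002 arrays (left, red) and DMSO arrays (right, blue), with lines at the group means and a symbol for each replicate. The LY294002 arrays lie above the DMSO arrays for JUNB, JUND and JUN and are intermixed or nearly level for the FOS and EGR genes.

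Among the FOS genes, FOS itself, the classic early gene and partner of JUN, had 6.01 and 6.19 on the LY294002 arrays, against 5.73, 5.96 and 6.01 on the DMSO arrays. LY294002 replicate 1 and DMSO replicate 3 hold the same value, so the groups touch. The log2 difference was 0.20 ± 0.11 (95% interval -0.09 to 0.49, limma adjusted p = 0.432). It was 0.12 without DMSO replicate 1, the lowest array, and 0.11 without LY294002 replicate 2, the highest.

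FOSL1, also known as FRA1, a FOS relative without the transactivation domain of FOS, had 5.50 and 5.79 on the LY294002 arrays, against 5.64, 5.97 and 5.86 on the DMSO arrays. The groups overlap, and the log2 difference was -0.18 ± 0.14 (95% interval -0.54 to 0.19, limma adjusted p = 0.509). Without LY294002 replicate 1 it was -0.03, and without LY294002 replicate 2 it was -0.32. Its value moved with the LY294002 array that was kept.

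FOSB had the identical value 6.24 on both LY294002 arrays and on DMSO replicates 1 and 3, with 6.26 on DMSO replicate 2. FOSL2, also known as FRA2, had 5.89 and 5.88 on the LY294002 arrays, against 5.89, 5.93 and 5.89 on the DMSO arrays, with 3 identical values. The log2 differences were -0.0060 ± 0.03 for FOSB (95% interval -0.08 to 0.06) and -0.02 ± 0.03 for FOSL2 (-0.10 to 0.06), with limma adjusted p-values of 0.918 and 0.725. A value repeated on another array of its group was found in 3325 of the 8746 probe sets, FOSB and FOSL2 among them, and such repeats lower the spread that these intervals are built on.

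EGR1, the zinc finger factor induced by mitogens through SRF, had 5.73 and 5.91 on the LY294002 arrays, against 5.57, 6.17 and 5.98 on the DMSO arrays. The LY294002 arrays lie inside the DMSO range, which is 0.60 wide, the widest of the 9 members. The log2 difference was -0.09 ± 0.20 (95% interval -0.61 to 0.44, limma adjusted p = 0.821). EGR3, known as a gene induced by antigen receptors, had 4.85 and 4.79 on the LY294002 arrays, against 4.86, 4.86 and 4.94 on the DMSO arrays. Its groups are separated by only 0.01, and its log2 difference was -0.07 ± 0.04 (95% interval -0.18 to 0.04, limma adjusted p = 0.447). It was -0.04 without LY294002 replicate 2 or without DMSO replicate 3.

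The means of 7 of the 9 members, all but JUNB and JUND, lay below 6.27, the median over probe sets. The arrays come with no detection calls here, so it is not known which of the 7 were above background. A real difference in a gene near background would be compressed on this scale.

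**Figure D2:**
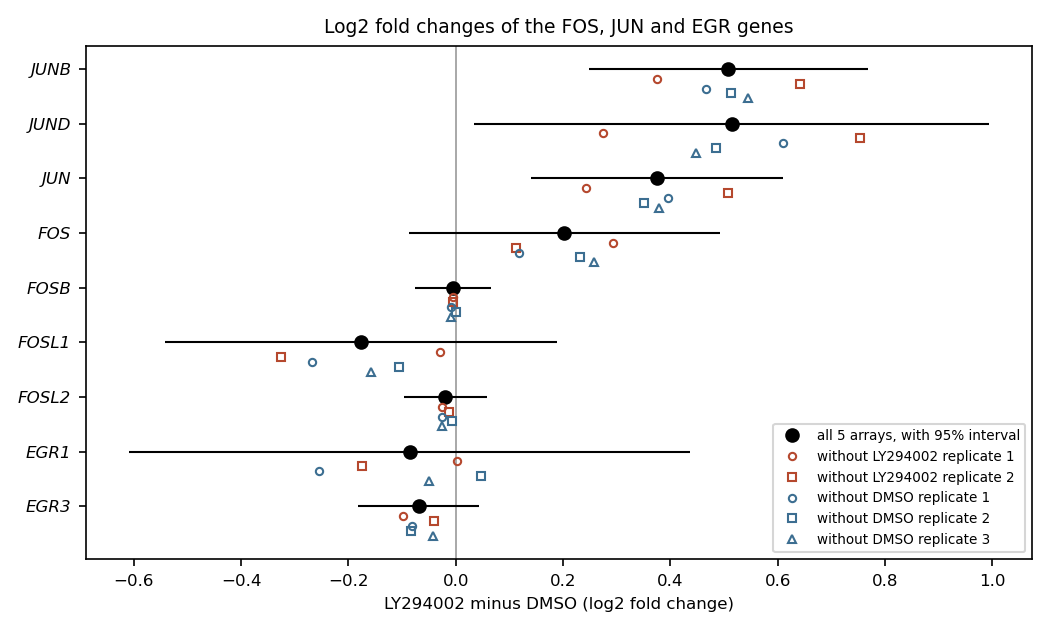
Log2 fold changes of LY294002 over DMSO (horizontal axis) for the 9 members, with black dots and 95% intervals for all 5 arrays and open symbols for the same difference without each array in turn. The 3 JUN genes stay above 0 without any 1 array, from 0.24 to 0.75, while EGR1 changes sign between -0.25 and 0.05.

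Genes tied to JUN factors in Hodgkin cells were read beside JUNB. TNFRSF8, the gene of CD30, had 7.71 and 7.39 on the LY294002 arrays, against 8.13, 8.49 and 8.09 on the DMSO arrays, so that both LY294002 arrays lie below every DMSO array. The log2 difference was -0.68 ± 0.17 (limma adjusted p = 0.157, and 0.0263 without repeated values). BATF3, a leucine zipper partner of JUN proteins, had 8.78 and 8.61 on the LY294002 arrays, against 9.02, 9.16 and 9.16 on the DMSO arrays. Its log2 difference was -0.42 ± 0.08 (limma adjusted p = 0.0961), with an adjusted p of 0.0164 after quantile normalization and 0.027 after cyclic loess. BATF, a close relative, had 8.47 and 8.12 on the LY294002 arrays, against 8.64, 8.64 and 8.74 on the DMSO arrays (-0.38 ± 0.12, limma adjusted p = 0.217). The difference of BATF was -0.20 without LY294002 replicate 2. These 3 genes had the opposite sign to JUNB, with separated groups in each, and none of them passed on the deposited values. LGALS1, the galectin known as an AP-1 target in Hodgkin cells, had 11.06 and 11.08 on the LY294002 arrays, against 11.02, 10.82 and 11.18 on the DMSO arrays, with overlapping groups (0.06 ± 0.11).

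**Figure D3:**
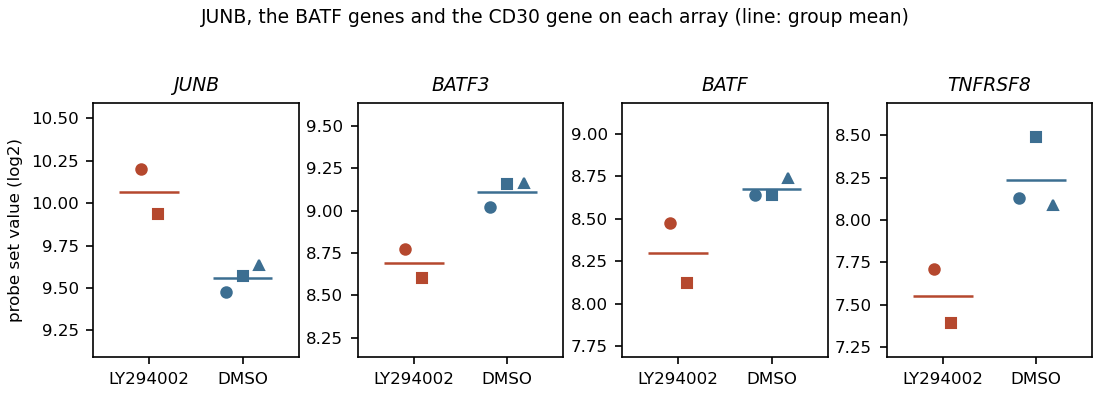
Log2 probe set values of JUNB, BATF3, BATF and TNFRSF8 (vertical axes, each spanning 1.5 log2 units) on the LY294002 arrays (left, red) and DMSO arrays (right, blue), with lines at the group means and circles, squares and triangles for replicates 1, 2 and 3. In JUNB the LY294002 arrays lie above the DMSO arrays, and in the other 3 genes they lie below.

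Other leucine zipper genes that can pair with FOS or JUN were read from a list of 24, of which 19 were measured and 0 passed in either direction, with a median log2 fold change of -0.0080. The LY294002 values lay above the DMSO range for 4 of the 19 and below it for 4 (21.1% each). Over all genes the shares were 16.2% above and 13.4% below. ATF3, a stress-induced partner of JUN, had the highest difference, 0.46 ± 0.16, with 9.22 and 9.20 on the LY294002 arrays against 8.45, 8.88 and 8.92 on the DMSO arrays. ATF5 had the lowest, -0.79 ± 0.52, with 8.22 and 7.83 on the LY294002 arrays against 9.77, 8.34 and 8.34 on the DMSO arrays. DMSO replicate 1 stands apart from the other DMSO arrays in both genes, and without it the differences were 0.31 for ATF3 and -0.31 for ATF5.

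Of a list of SRF, its ternary complex partners, the EGR corepressors, EGR4 and WT1, 8 of 10 genes were measured, and 0 passed, with a median log2 fold change of -0.04. The LY294002 values lay above the DMSO range for 1 of the 8, NAB1 (12.5%), and below it for 3, ELK1, ELK4 and WT1 (37.5%). Over all genes the shares were 16.2% above and 13.4% below. The groups were separated by 0.02 in ELK1, 0.06 in ELK4 and 0.01 in WT1. NAB1, a corepressor of EGR proteins, had 7.02 and 6.58 on the LY294002 arrays, against 6.29, 6.48 and 6.21 on the DMSO arrays. The groups do not overlap, and the difference was 0.47 ± 0.16 (limma adjusted p = 0.252), or 0.26 without LY294002 replicate 1. NAB2, itself induced by EGR factors, held 6.61 on both LY294002 arrays, against 6.59, 6.71 and 6.61 on the DMSO arrays (-0.03 ± 0.05). SRF was at 0.03 ± 0.13, its partners ELK1 at -0.10 ± 0.04, ELK3 at 0.04 ± 0.04 and ELK4 at -0.16 ± 0.05, the fourth EGR gene EGR4 at -0.16 ± 0.11, and WT1, a zinc finger factor with an EGR-like binding site, at -0.06 ± 0.04. Without LY294002 replicate 1, ELK1 was at -0.04, ELK4 at -0.09 and EGR4 at -0.08, and without LY294002 replicate 2 WT1 was at -0.03. The kinases that signal to the FOS, JUN and EGR genes had a median of 0.07 over 17 of 25 listed, with 0 past the threshold. Of the 17 kinases 4 (23.5%) had both LY294002 values above the DMSO range and 3 (17.6%) had both below it. Their highest value was that of MAP3K7, the kinase TAK1, at 0.40 ± 0.15, and their lowest that of RPS6KA2, an RSK kinase downstream of ERK, at -0.33 ± 0.11. RPS6KA3, its relative, was at 0.34 ± 0.15. Each moved by over 1.5 times with 1 array: MAP3K7 was at 0.26 and RPS6KA3 at 0.15 without LY294002 replicate 1, and RPS6KA2 at -0.18 without LY294002 replicate 2.

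Other immediate early genes were read from a list of 46, of which 42 were measured, with a median log2 fold change of 0.05 and 30 of them above 0. On this list 1 gene rose and 0 fell, where 0.609% of all genes rose and 0.298% fell. The count on this list was 9 after quantile normalization, 8 after cyclic loess and 4 after median centring. Over all 7713 genes it was 299, 264 and 147 in these settings. Without the dimmest 40% of probe sets 7 genes of the list passed, and 203 of all 4643 genes tested. Without probe sets that repeat a value within a group these counts were 13, and 510 of 4771. Fewer of the 42 genes were tested in the filtered fits. All these calls on the list were higher with LY294002. GADD45B, a stress sensor that acts on p38 and JNK signalling, rose by 0.81 ± 0.08, with 9.04 and 8.88 on the LY294002 arrays against 8.04, 8.26 and 8.15 on the DMSO arrays (limma adjusted p = 0.0439). The call was lost when any 1 array was left out, with differences of 0.74 to 0.89 and limma adjusted p-values of 0.0802 to 0.215. It was also lost with weighted arrays (0.0851), a replicate block (0.363) and no variance moderation (0.277). IER3, an early gene that restrains apoptosis, had the largest difference, 1.07 ± 0.16, with 8.61 and 8.46 on the LY294002 arrays against 7.17, 7.59 and 7.62 on the DMSO arrays (limma adjusted p = 0.0758). It passed after quantile normalization (0.0301), cyclic loess (0.0314) and median centring (0.0499), without dim probe sets (0.0378) and without repeated values (0.0056). IER3 did not pass with weighted arrays (0.144), a replicate block (0.371), no variance moderation (0.342) or a robust prior that follows intensity (0.053). Nor did it pass without any 1 DMSO array (0.0858 to 0.224). With each of the 5 arrays left out in turn, its difference was 0.93 to 1.15. GEM, a small GTP-binding protein, had the lowest, -0.26 ± 0.11 (0.363).

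Of the 42 genes, 18 (42.9%) had both LY294002 values above the DMSO range and 1, GEM (2.38%), had both below it, where the shares over all genes were 16.2% and 13.4%. The genes named next were chosen after their values were seen. IER2, a nuclear early gene, had 10.15 and 10.04 on the LY294002 arrays, against 9.49, 9.69 and 9.64 on the DMSO arrays (0.48 ± 0.08). MCL1, a survival factor of the BCL2 family, had 9.66 and 9.41 on the LY294002 arrays, against 9.01, 8.94 and 8.88 on the DMSO arrays (0.59 ± 0.09). DUSP1, a phosphatase that switches off JNK and p38, had 7.47 and 7.53 on the LY294002 arrays, against 6.56, 7.26 and 7.09 on the DMSO arrays (0.53 ± 0.22). In these 3 genes the groups do not overlap, and none passed, with limma adjusted p-values of 0.0767, 0.0747 and 0.352. Also named outside the rule, MYC was at 0.0018 ± 0.09 and NR4A1, a nuclear receptor of the early response, at 0.05 ± 0.04. DMSO replicate 1 was the lowest DMSO array in 27 of the 42 genes, a larger share than the 33.7% over all genes. Among the members it was the lowest in JUNB, FOS, FOSL1 and EGR1. Without it JUNB was at 0.47, FOS at 0.12, IER3 at 0.93 and DUSP1 at 0.32.

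**Figure D4:**
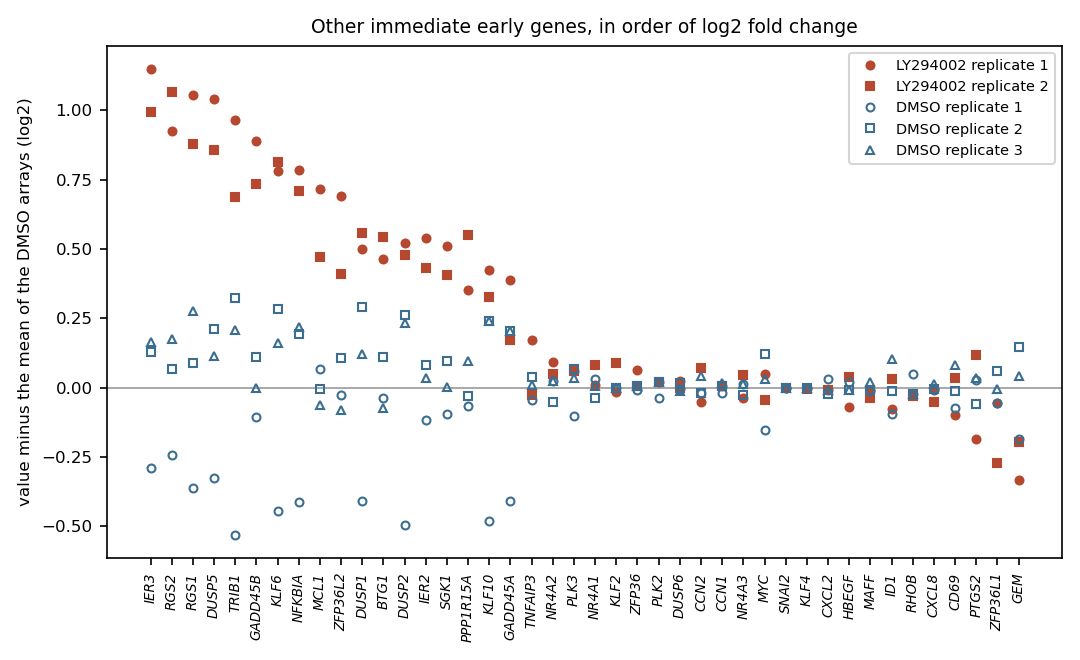
Values of the 42 measured immediate early genes outside the FOS, JUN and EGR families on each array, minus the mean of the DMSO arrays (vertical axis, log2), in order of log2 fold change from IER3 to GEM. Filled red symbols are the LY294002 arrays and open blue symbols the DMSO arrays, of which replicate 1 is the lowest for many genes on the left.

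Genes known to respond to AP-1 or EGR factors had log2 fold changes of both signs, with 0 of 26 past the threshold, 11 above 0 and a median log2 fold change of -0.02. The count was 2, IL2RA higher and CDKN1A lower with LY294002, after quantile normalization, cyclic loess and median centring and without dim probe sets. It was 1, IL2RA, with a robust prior that follows intensity, and 6, TNFRSF8 among them, without repeated values. IL2RA, the alpha chain of the interleukin 2 receptor, had 8.09 and 8.19 on the LY294002 arrays, against 6.74, 7.19 and 7.09 on the DMSO arrays (1.13 ± 0.15, limma adjusted p = 0.0599). TNFRSF8 lay at the other end of the list. TNF, the cytokine gene, had 8.61 and 8.68 on the LY294002 arrays, against 7.61, 8.18 and 8.13 on the DMSO arrays (0.68 ± 0.19, limma adjusted p = 0.199). The LY294002 values lay above the DMSO range for 6 of the 26 (23.1%), beside 16.2% of all genes. They lay below it for 2 (7.69%), TNFRSF8 and the cell cycle inhibitor gene CDKN1A, beside 13.4% of all genes. CDKN1A was chosen after its values were seen.

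The genes most like JUNB over the 5 arrays were sought among 3860 genes at or above the median level, by the root mean square difference of values centred on each gene's mean. They were DNM2, a dynamin of endocytosis, at 0.0214, AFF1, a scaffold of transcription elongation complexes, at 0.0337, and STAG3L3 at 0.0352. DNM2 had 7.86 and 7.61 on the LY294002 arrays, against 7.19, 7.25 and 7.33 on the DMSO arrays, so that it shares the order of the arrays with JUNB. For JUND, the member with the largest difference, they were WDR13 at 0.0504, the splicing factor gene SF1 at 0.0644 and the chromatin remodeller gene ATRX at 0.0689. In all 6 genes LY294002 replicate 1 was the highest array, as in JUNB and JUND, and none passed, with limma adjusted p-values of 0.101 to 0.292. This measure of likeness uses every array, and so includes differences between arrays of the same group.

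The cell line label was checked against markers. All 10 listed Hodgkin cell markers were measured, and 9 had means above the median of probe sets, including TNFRSF8, GATA3 and CD40. Their log2 fold changes had both signs, with 4 of the 10 above 0 and a median of -0.10. They ran from -0.68 ± 0.17 for TNFRSF8 to 1.14 ± 0.18 for CCR7. Of the B cell markers 4 of 6 were measured, with MS4A1 and CR2 above the median. CR2 fell by 0.76 ± 0.08 (limma adjusted p = 0.0437) and the Hodgkin marker IRF4 rose by 0.66 ± 0.07 (0.0472), both calls being lost when any 1 array was left out, and MS4A1 was at -0.999 ± 0.15. The log2 levels of the 4 B cell markers summed to 30.0 to 30.3 on the LY294002 arrays and 31.6 to 31.9 on the DMSO arrays. Within this sum CD79A was at 0.06 ± 0.07 and CD79B at 0.01 ± 0.03, so the lower sum came from MS4A1 and CR2. The part of this sum in the JUN family values was not tested. CD79B was at 5.19 on both LY294002 arrays and 5.17 to 5.19 on the DMSO arrays. The 3 measured monocyte markers had means below the median, at 5.52 to 5.91 on the LY294002 arrays and 5.63 to 6.33 on the DMSO arrays. The 6 T cell markers lay above it, at 6.42 to 8.71 on the LY294002 arrays and 6.63 to 8.97 on the DMSO arrays, and levels of different probe sets do not rank genes.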

How the data were processed

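The deposited table holds log2 probe set values on an Affymetrix array for 5 samples, which the authors made with affy (an R package), per the submitters' processing notes. Its version and settings were not given in the sources. The values were used as deposited. After removal of 47 control probe sets, 8746 entered the fit. Names came from the platform annotation: 7840 probe sets had 1 gene symbol, 388 several and 518 none. A gene is represented by its probe set with the highest mean, which gave 7713 genes.

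LY294002 (2 arrays) was compared with DMSO (3 arrays) by limma 3.58.1 (lmFit and eBayes, R 4.3.3), with no term besides the group and p-values adjusted by Benjamini-Hochberg over all probe sets at 0.05. The fit has 3 residual degrees of freedom, and the number of arrays limits the precision. Data were simulated with normal noise at the moderated spread of these 8746 probe sets, with no correlation between genes and no repeated values. On them the fit called 85.9% of log2 changes of 0.5 and 99.2% of changes of 1. In the deposited data 38.0% of probe sets repeat a value within a group. The simulated shares therefore do not give the share of such changes found here. JUNB at 0.51 and IER3 at 1.07 did not pass. Members and lists were chosen with earlier results of these data known. Named beside the members were genes past the threshold in each list or its extremes up to 3, all genes of the SRF and EGR corepressor list, TNFRSF8, LGALS1, BATF and BATF3, and the 3 genes most like JUNB and JUND. Genes outside this rule (IER2, MCL1, DUSP1, MYC, NR4A1 and CDKN1A) were chosen after their values were seen. Alternatives were other normalizations, a filter on dim probe sets, other variance models, weights per array, a block for the replicate number, averaged probe sets per gene, a 2-fold limit, each array left out, and, added after seeing the data, the removal of probe sets that repeat a value within a group. Figures were drawn with matplotlib 3.10.9.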

Additional observations from a re-analysis of the deposited data

How the results depend on the processing

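The count of FOS, JUN and EGR genes past the threshold was 0 on the deposited values, 1 after quantile normalization and 1 after cyclic loess (JUNB in both), and 2 without probe sets with identical values within a group (JUNB and JUN); it was 0 under the other alternatives run, including each array left out and the replicate block. Over all genes the count was 70 on the deposited values, 299 after quantile normalization, 264 after cyclic loess, 147 after median centring, 203 without the dimmest 40% of probe sets, 510 without probe sets with identical values, 17 with array weights, 1 without variance moderation, 20 at a fold of at least 2, 0 with the replicate block, and 0 to 4 without 1 array. The cause of these shifts was not tested. Fewer genes were tested in the filtered fits, and the part of this in their counts was not tested either. Among the members, FOSB and FOSL2 were left out of the fit without identical values. JUN, FOSL1 and EGR3 were left out of the fit without the dimmest 40% of probe sets. In 122 of 130 alternative values of the 9 members, sign and side of the threshold were kept; 4 moved past the threshold, and 4 had the other sign, none of them past it. FOSB was at 0.011 and FOSL2 at 0.0037 after cyclic loess, and EGR1 at 0.0022 without LY294002 replicate 1 and 0.047 without DMSO replicate 2, in a range of -0.25 to 0.047 over the fits without 1 array. The replicate numbers are shared by 2 pairs of arrays only, and deviations from the group means correlated at 0.0021 between arrays numbered 1 and -0.21 between arrays numbered 2. With only 2 LY294002 arrays, their deviations are mirror images, so these correlations cannot tell whether the numbers mark pairs. The arrays were not taken as pairs, and with the block JUNB was at 0.54 (limma adjusted p = 0.428).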
